A study of Homo sapiens with 6 samples.

Results

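The 10 genes described here belong to JAK-STAT signalling and its feedback: the kinase gene JAK2, the transcription factor genes STAT3, STAT5A, STAT5B and STAT6, the inhibitor genes SOCS1, SOCS2, SOCS3 and CISH, and the target gene PIM1. They were found by exact match of the gene symbol and are 10 of the 26810 gene rows of the table. All 10 passed the filter on low values and are among the 12449 genes tested. Poly(A)-enriched RNA was sequenced from a single Cas9-expressing clone of U-937, an established human leukemia line that resembles monocytes and is labelled here with a KMT2A-MLLT10 fusion. The fusion is given as the labels state it and was not checked. Of 6 libraries, 3 came from cells given the guide sgMETTL1.3 against METTL1, the catalytic subunit of a tRNA N7-methylguanosine methyltransferase, and 3 from cells given the control guide sgNS. Both groups carried lentivirus, were selected in blasticidin at 10 µg/ml and hygromycin B at 200 µg/ml, and were harvested 8 to 10 days after transduction. With 1 guide, 1 clone and no rescue, loss of METTL1 cannot be told apart from anything else this guide did. Whether replicates were grown separately is not in the labels, and the p-values may therefore rest on technical spread alone.

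Cytokine receptors without a kinase domain of their own bind JAK kinases, which phosphorylate the receptor and then STAT proteins. Phosphorylated STATs pair, enter the nucleus and bind palindromic elements, among them elements near the genes of their own inhibitors. The SOCS proteins and CISH bind activated receptors or JAKs and damp the signal, so their transcripts are widely used as readouts of STAT activity. In myeloid cells STAT3 acts downstream of interleukin 6, interleukin 10 and granulocyte colony stimulating factor, STAT5A and STAT5B downstream of interleukin 3 and GM-CSF, and STAT6 downstream of interleukin 4 and interleukin 13. RNA levels do not measure the phosphorylation on which this signalling rests.

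The sequences that carry the STAT-type palindrome are shown because STAT binding is what links the factors to the inhibitor genes among the 10. In windows of 250 bases before each RefSeq start (GRCh38.p14), 15 starts of 9 of the 10 genes were matched, and SOCS2 had no entry. The palindrome TTCNNNGAA, and the same arms TTC and GAA with 4 bases between them, were searched on both strands. CISH held 4 matches to the shorter form and none to the longer, and 1 start of STAT5A held 1 match to the longer; no other of the 15 starts held either. Among all 35116 RefSeq starts searched, 6.57% held the shorter form and 5.38% the longer. Among the 13267 starts of tested genes, 5.37% and 4.24% did. The CISH matches span bases 241 to 222 and bases 129 to 104 before the start. Capitals mark the matches, and every sequence reads along the strand of the gene. The distal CISH stretch (chr3:50611996-50612015, minus strand) also lies in an exon of MAPKAPK3 on the opposite strand, and the proximal one is at chr3:50611832-50611907 (minus strand). The STAT5A window is chr17:42287189-42287438 (plus strand). The SOCS3 window, chr17:78360926-78361175 (minus strand), is shown for comparison, as SOCS3 had the largest rise of the 10 and no match in its RefSeq windows. The shown window lies farther upstream than the gene start placed at chr17:78360077 by the coordinates given below. A further SOCS3 window, chr17:78359668-78359917, lies within the gene. The bases directly before chr17:78360077 were therefore not searched, and whether they hold a match was not tested. The only windows of STAT5B (chr17:42276392-42276641) and STAT6 (chr12:57110290-57110539), both minus strand, likewise lie within the gene spans given below. For STAT5B and STAT6 the bases directly before those gene starts were also not searched. Some windows of JAK2 and STAT5A lie within the gene as well.
CISH distal: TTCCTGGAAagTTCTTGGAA
CISH proximal: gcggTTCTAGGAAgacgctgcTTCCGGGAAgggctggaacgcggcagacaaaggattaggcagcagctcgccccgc
STAT5A: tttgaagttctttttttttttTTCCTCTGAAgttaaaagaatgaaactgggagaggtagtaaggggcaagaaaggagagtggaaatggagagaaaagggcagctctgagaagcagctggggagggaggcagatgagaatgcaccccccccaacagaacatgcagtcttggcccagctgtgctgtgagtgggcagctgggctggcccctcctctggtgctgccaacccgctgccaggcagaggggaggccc
SOCS3: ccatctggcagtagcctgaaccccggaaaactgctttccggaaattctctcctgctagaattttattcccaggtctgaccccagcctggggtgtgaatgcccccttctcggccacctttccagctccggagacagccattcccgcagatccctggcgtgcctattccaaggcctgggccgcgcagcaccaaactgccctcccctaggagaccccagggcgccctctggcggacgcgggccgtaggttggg
A match is a description of these letters and not a measured binding site, and the absence of one in a window says nothing of elements elsewhere.

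SOCS3 and STAT3 rose in sgMETTL1.3 cells, SOCS2 and STAT5A fell, and these 4 calls were made on both scales examined. In the main fits of all 6 libraries, JAK2, STAT6 and STAT5B fell on the scale of the deposited values only. There PIM1 rose as TPM only, and CISH and SOCS1 passed on neither scale. JAK2 and STAT6 were also called lower as TPM in other settings given below. The deposited values are TPM (transcript abundance per transcript length, summing to the same total in each library) multiplied by 1 factor per library that gives the ERCC spike-in rows the same sum; they are called spike-in-scaled values here, and dividing the factor out again gives TPM. The factors were 0.832 to 1.03 in sgMETTL1.3 libraries and 1.13 to 1.23 in sgNS libraries, and over all tested genes the median log2 fold change came to -0.32 on the spike-in scale and 0.00 as TPM. On the spike-in scale 2 of the 10 genes were called higher and 5 lower, against 6.40% and 49.3% of all tested genes (limma, adjusted p under 0.05). As TPM 3 were called higher and 2 lower, against 24.4% and 26.6%. Of these, SOCS3 passed the filter as TPM only through its sgMETTL1.3 libraries. The sgMETTL1.3 and sgNS libraries did not overlap for 2 genes that were higher and 5 that were lower on the spike-in scale, against 8.66% and 53.4% of all tested genes, and for 5 and 3 as TPM, against 30.2% and 33.1%. A count of 5 in 10 lower is close to that of all genes and is no result about the 10 as a group. In bulk RNA of this kind, a change in RNA per cell cannot be told apart from a change in the share of cells that make it. Because 1 was added to each value before taking log2, fold changes of low genes are understated, and the read depth behind the values is unknown.

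**Figure D1:**
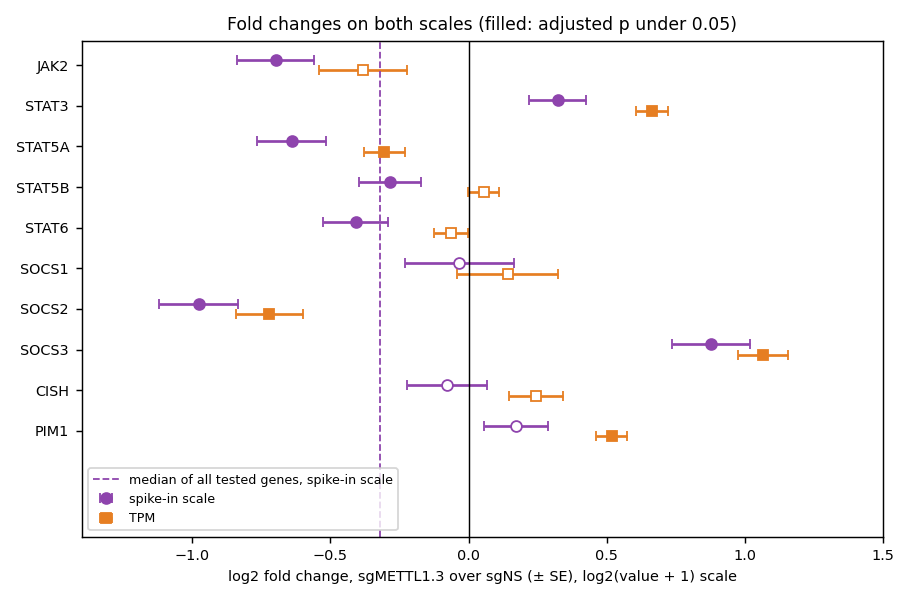
Log2 fold changes of the 10 genes (x axis, sgMETTL1.3 over sgNS, bars show the SE, 3 libraries per group) on the spike-in scale (circles) and as TPM (squares), filled where the limma adjusted p was under 0.05. SOCS3 and STAT3 lie right of 0 and SOCS2 and STAT5A left of 0 with filled symbols on both scales; the dashed line is the median of all tested genes, -0.32.

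METTL1 itself had spike-in-scaled values of 8.28, 5.94 and 7.42 in sgMETTL1.3 libraries and 19.7, 22.0 and 20.3 in sgNS libraries, so its transcript was lower in each library labelled with the METTL1 guide (log2 fold change -1.41, adjusted p = 2.41e-06 by limma). The libraries listed 12134 to 12505 genes at a value of at least 1. The library sgMETTL1.3 replicate 1 stood apart: its deviation from the other libraries of its group followed transcript GC content across genes (Spearman 0.841, across genes, which are not independent replicates). Without it, 6.43% of tested genes were called higher and 61.4% lower on the spike-in scale, and 34.7% and 35.4% as TPM. A correction of each library for GC content, added after the data were seen, gave 8.29% and 61.3% on the spike-in scale and 29.9% and 35.5% as TPM. Results that rest on this library are given without it below. Myeloid markers were present, with CD33, CD68, SPI1 and ITGB2 among the 11 of 13 listed markers that were tested, while CD14 and MPO did not pass the filter. The myeloid markers summed to 1804 to 2305 in sgMETTL1.3 libraries and 2999 to 3264 in sgNS libraries (spike-in-scaled values). On that scale 7 of the 11 were called lower and 0 higher, against 49.3% and 6.40% of all tested genes. As TPM 6 were called lower and 2 higher, against 26.6% and 24.4%. The part of these markers in the results below was not tested. Of 7 T and natural killer cell markers 2 were tested, with 1 higher and 1 lower, and the list summed to 161 to 244 in sgMETTL1.3 libraries and 306 to 341 in sgNS libraries. The T cell genes CD3D and CD3G, the red cell genes HBA1 and HBB and the epithelial genes KRT18 and KRT19 were listed at 0 in every library. Other markers were detected. Of 5 B cell markers 3 were tested, with list sums of 6.31 to 11 in sgMETTL1.3 and 7.85 to 10.1 in sgNS libraries. Of 6 fibroblast and endothelial markers 2 were tested, with list sums of 35.9 to 40 and 46 to 49.8. Of 7 erythroid and megakaryocyte markers 1 was tested, and of 5 epithelial markers 0.

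Per transcript length, the 10 genes spanned about 2 orders of magnitude. In sgMETTL1.3 cells the mean spike-in-scaled level ran from PIM1 at 110.2 through STAT6 (78.6), STAT3 (59.1), STAT5B (31.3), STAT5A (19.7), CISH (12.9), JAK2 (6.91), SOCS3 (2.60) and SOCS2 (1.46) to SOCS1 (1.24). In sgNS cells it ran from STAT6 at 103.9 through PIM1 (97.0), STAT3 (47.0), STAT5B (38.2), STAT5A (31.0), CISH (13.4), JAK2 (11.7), SOCS2 (3.85) and SOCS1 (1.24) to SOCS3 (0.962). The library ranges of neighbours in these orders were separate except for SOCS2 and SOCS1 in sgMETTL1.3 cells, and for STAT6 and PIM1 and for SOCS1 and SOCS3 in sgNS cells. SOCS3 had the lowest mean of the 10 in sgNS cells, where its range overlapped that of SOCS1, and was above both SOCS1 and SOCS2 in each sgMETTL1.3 library.

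**Figure D2:**
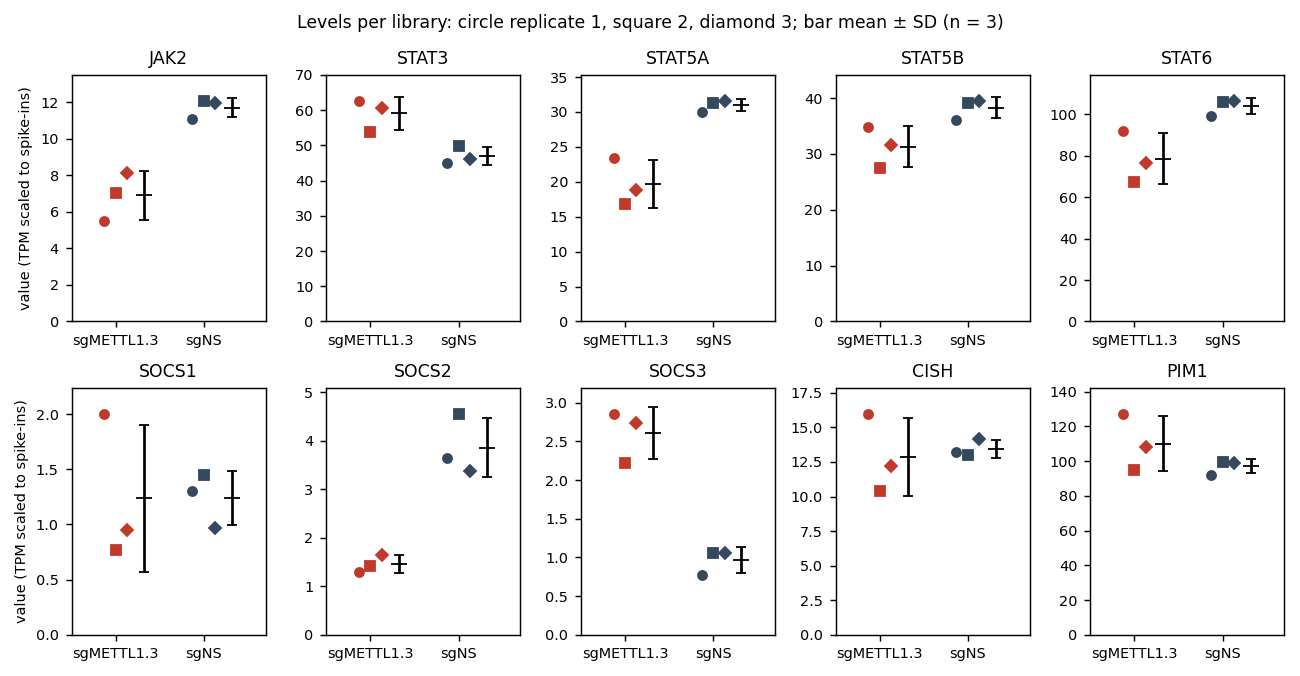
Spike-in-scaled TPM (y axis, from 0) of each of the 10 genes in the 3 sgMETTL1.3 libraries (left, red) and the 3 sgNS libraries (right, dark), with the mean and SD beside the points. The groups do not overlap for JAK2, STAT3, STAT5A, STAT5B, STAT6, SOCS2 and SOCS3, and they overlap for SOCS1, CISH and PIM1.

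The kinase gene JAK2 fell on the spike-in scale and lay below every control library. JAK2 (chr9:4984390-5128183, plus strand, GRCh38) encodes the kinase used by receptors for GM-CSF, interleukin 3, erythropoietin and interferon gamma. Its spike-in-scaled values were 5.52, 7.06 and 8.15 in sgMETTL1.3 libraries and 11.1, 12.1 and 12.0 in sgNS libraries. The means were 6.91 ± 1.33 and 11.7 ± 0.537 (SD, n = 3 each), with a log2 fold change of -0.70 (adjusted p = 0.000822 by limma, SE 0.14). As TPM the groups also did not overlap, at 5.38, 8.48 and 8.59 in sgMETTL1.3 libraries against 9.83, 9.84 and 9.92 in sgNS libraries, but the log2 fold change of -0.38 did not pass (adjusted p = 0.0831 by limma). The lowest value on both scales is that of sgMETTL1.3 replicate 1, and JAK2 has the lowest transcript GC content of the 10 at 42.6%; without that library the log2 fold change was -0.57 on the spike-in scale and -0.19 as TPM, both called lower (adjusted p = 9.06e-06 and 0.0126 by limma). After the GC correction as TPM, JAK2 was also called lower (-0.27, adjusted p = 0.0422 by limma). The other JAK genes did not pass on the spike-in scale. JAK1 averaged 91.4 ± 7.78 in sgMETTL1.3 libraries and 92.4 ± 3.57 in sgNS libraries (spike-in-scaled, SD, n = 3 each), a log2 fold change of -0.02. TYK2, which serves interferon and interleukin 12 receptors, had a log2 fold change of -0.20, and JAK3, the partner of the common gamma chain, -0.13. As TPM JAK1 was called higher (0.33).

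STAT3 rose while STAT5A fell. STAT3 (chr17:42313324-42388568, minus strand) encodes the main factor downstream of gp130 receptors. Its spike-in-scaled values were 62.6, 53.9 and 60.7 in sgMETTL1.3 libraries and 44.9, 49.7 and 46.3 in sgNS libraries. Every sgMETTL1.3 library was above every control, with means of 59.1 ± 4.57 and 47.0 ± 2.45 (SD, n = 3 each) and a log2 fold change of 0.32 (adjusted p = 0.0175 by limma, SE 0.10). As TPM the log2 fold change was 0.66 (adjusted p = 0.00022 by limma). On the spike-in scale the call was lost without sgNS replicate 1 (0.29, adjusted p = 0.0796 by limma) and without sgNS replicate 3 (0.31, adjusted p = 0.0869 by limma).

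STAT5A (chr17:42287547-42311943, plus strand) and STAT5B (chr17:42199168-42276707, minus strand) are neighbouring paralogs whose products mediate GM-CSF and interleukin 3 signals. STAT5A had spike-in-scaled values of 23.4, 16.8 and 18.9 in sgMETTL1.3 libraries and 30.01, 31.3 and 31.6 in sgNS libraries. The groups were well apart, with a log2 fold change of -0.64 (adjusted p = 0.000784 by limma, SE 0.13) and of -0.31 as TPM (adjusted p = 0.0127 by limma). STAT5B had spike-in-scaled values of 34.8, 27.6 and 31.6 in sgMETTL1.3 libraries and 36.1, 39.2 and 39.5 in sgNS libraries. Its groups were separate by a narrow margin, and the log2 fold change was -0.28 (adjusted p = 0.0464 by limma, SE 0.11). As TPM the STAT5B log2 fold change was 0.05 (adjusted p = 0.452 by limma), and its spike-in call was lost when any library other than sgMETTL1.3 replicate 1 was left out. Over the 6 fits that each leave out 1 library, the STAT5B log2 fold change ran from -0.36 to -0.20 and its limma adjusted p from 0.00228 to 0.173. Of the distinct stretches of 50 bases in STAT5A transcripts, 10.3% also occur in STAT5B transcripts, so reads from these could be assigned to either gene.

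STAT5B made up a larger share of the pair in sgMETTL1.3 cells. Its share of STAT5A plus STAT5B, in which the factor of a library cancels, was 59.8%, 62.2% and 62.7% in sgMETTL1.3 libraries and 54.6%, 55.6% and 55.6% in sgNS libraries. The difference of 6.29 percentage points gave p = 0.1 in a two-sided exact permutation test, and 3 against 3 libraries allow no smaller p.

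STAT6 (chr12:57095408-57132139, minus strand) lies on the same chromosome as METTL1 (chr12:57768471-57772793, minus strand) and encodes the factor of the interleukin 4 response. Its spike-in-scaled values were 91.8, 67.3 and 76.7 in sgMETTL1.3 libraries and 99.4, 106.0 and 106.4 in sgNS libraries. All 3 sgMETTL1.3 libraries were below the controls, with a log2 fold change of -0.41 (adjusted p = 0.00944 by limma, SE 0.12). As TPM the STAT6 groups overlapped and the log2 fold change was -0.06 (adjusted p = 0.421 by limma). Without sgMETTL1.3 replicate 1, where STAT6 was highest of its group, it was -0.11 as TPM and called lower (adjusted p = 0.00359 by limma). After the GC correction as TPM it was -0.17 and called lower (adjusted p = 0.0052 by limma).

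Relative to one another, STAT3 gained on the rest of the 4 factor genes. STAT3 was 29.4%, 32.6% and 32.3% of the summed values of STAT3, STAT5A, STAT5B and STAT6 in sgMETTL1.3 libraries and 21.4%, 22.0% and 20.7% in sgNS libraries (exact permutation p = 0.1). STAT6 was 41.6 ± 1.41% of that sum in sgMETTL1.3 libraries and 47.2 ± 0.346% in sgNS libraries (SD, n = 3 each; exact permutation p = 0.1). These 2 shares were chosen after the values were seen. The summed spike-in-scaled value of the 4 genes was 213, 166 and 188 in sgMETTL1.3 libraries and 210, 226 and 224 in sgNS libraries, so the groups overlapped (exact permutation p = 0.2). As TPM the sum was 207, 199 and 198 in sgMETTL1.3 libraries and 186, 184 and 185 in sgNS libraries, so it was higher in every sgMETTL1.3 library (exact permutation p = 0.1).

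**Figure D3:**
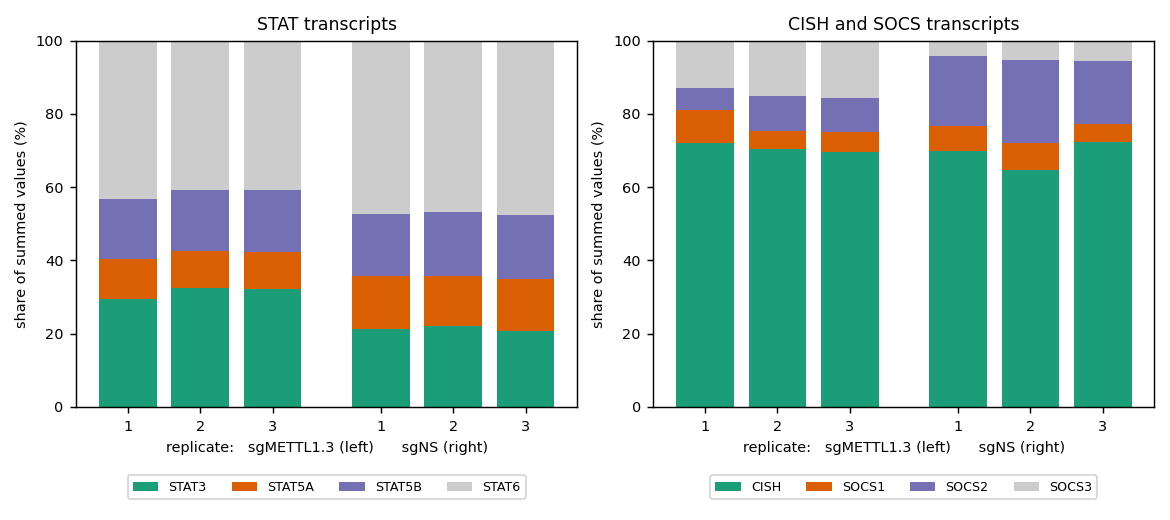
Shares (y axis, % of the summed values) of the STAT genes (left panel) and of CISH and the SOCS genes (right panel) in each of the 3 sgMETTL1.3 libraries (left bars) and 3 sgNS libraries (right bars). In every sgMETTL1.3 library the STAT3 and SOCS3 shares are larger and the SOCS2 share smaller than in any sgNS library.

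Among STAT genes outside the 10, STAT2, which acts in type I interferon signalling, averaged 39.1 ± 3.89 in sgMETTL1.3 libraries and 30.6 ± 2.01 in sgNS libraries (spike-in-scaled, SD, n = 3 each) and rose with a log2 fold change of 0.34 (adjusted p = 0.0194 by limma). STAT4 did not pass the filter.

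Among the feedback inhibitors, SOCS3 rose and SOCS2 fell, by the largest log2 fold changes of the 10 genes in each direction. SOCS3 (chr17:78356778-78360077, minus strand) encodes an inhibitor of gp130 and G-CSF receptor signalling that binds both receptor and JAK. Its spike-in-scaled values were 2.85, 2.22 and 2.74 in sgMETTL1.3 libraries and 0.768, 1.05 and 1.06 in sgNS libraries. Each sgMETTL1.3 library was at least 2-fold above every control, although all values are low. The means were 2.60 ± 0.336 and 0.962 ± 0.168 (SD, n = 3 each), a ratio of 2.71, and the log2 fold change was 0.88 (adjusted p = 0.000175 by limma, SE 0.14). As TPM the ratio of means was 3.45 and the log2 fold change 1.07 (adjusted p = 0.000185 by limma). The sgNS values as TPM were 0.68, 0.86 and 0.88, so on that scale SOCS3 passed the filter at 1 only through its sgMETTL1.3 libraries. SOCS3 has the highest transcript GC content of the 10, at 68.1%; after a GC correction its log2 fold change was 0.53 and still called (adjusted p = 0.000232 by limma), and with a pseudocount of 0.1 in place of 1 it was 1.35.

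SOCS2 (chr12:93569814-93583487, plus strand), a target of STAT5 and an inhibitor of growth hormone receptor signalling, had spike-in-scaled values of 1.302, 1.41 and 1.65 in sgMETTL1.3 libraries and 3.65, 4.54 and 3.37 in sgNS libraries. The groups were separate, with means of 1.46 ± 0.178 and 3.85 ± 0.612 (SD, n = 3 each), a log2 fold change of -0.98 (adjusted p = 7.22e-05 by limma, SE 0.14) and -0.72 as TPM (adjusted p = 0.0027 by limma). With a pseudocount of 5 the SOCS2 log2 fold change was -0.45 and still called. The antisense gene SOCS2-AS1 overlaps 277 of its exonic bases, and whether the counting used strand is not given in the sources used here.

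CISH (chr3:50606490-50611831, minus strand), an inhibitor induced through STAT5 that binds cytokine receptors, had the highest level of the 4 inhibitor genes and did not pass. Its spike-in-scaled values were 16.0, 10.4 and 12.2 in sgMETTL1.3 libraries and 13.2, 12.97 and 14.2 in sgNS libraries. The control libraries lay within the range of the sgMETTL1.3 libraries, and the log2 fold change was -0.08 (adjusted p = 0.669 by limma, SE 0.14). As TPM the CISH groups were separate, at 15.6, 12.5 and 12.9 in sgMETTL1.3 libraries against 11.7, 10.6 and 11.8 in sgNS libraries, with a log2 fold change of 0.24 that did not pass (adjusted p = 0.0753 by limma). The direction of CISH differed between the scales, and each direction was called in 1 setting: lower on the spike-in scale after the GC correction (-0.22, adjusted p = 0.0482 by limma) and higher as TPM without sgMETTL1.3 replicate 1 (0.15, adjusted p = 0.0483 by limma). On the spike-in scale the sign also turned without sgMETTL1.3 replicate 2 (0.0529). MAPKAPK3 on the opposite strand overlaps 218 of the exonic bases of CISH.

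SOCS1 (chr16:11254405-11256200, minus strand), an inhibitor of JAK kinases in the interferon response, was near the lower limit of the tested range. Its spike-in-scaled values were 2.00, 0.765 and 0.949 in sgMETTL1.3 libraries and 1.299, 1.45 and 0.966 in sgNS libraries, and the groups overlapped. The log2 fold change was -0.03 (adjusted p = 0.9 by limma, SE 0.20). SOCS1 was called lower after the GC correction (-0.36, adjusted p = 0.0156 by limma); its transcript GC content is 67.3% and its highest value is that of sgMETTL1.3 replicate 1.

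Of the inhibitor transcripts, SOCS3 took a larger share and SOCS2 a smaller one in sgMETTL1.3 cells, with no overlap between the groups. SOCS3 was 12.9%, 15.0% and 15.6% of the summed values of SOCS1, SOCS2, SOCS3 and CISH in sgMETTL1.3 libraries and 4.06%, 5.27% and 5.43% in sgNS libraries, a difference of 9.58 percentage points (exact permutation p = 0.1). SOCS2 was 8.28 ± 2.07% of that sum in sgMETTL1.3 libraries and 19.7 ± 2.77% in sgNS libraries (exact permutation p = 0.1), and CISH was 70.7 ± 1.33% and 69.0 ± 3.87% (SD, n = 3 each; exact permutation p = 0.7). The SOCS2 and CISH shares were chosen after the values were seen. The summed spike-in-scaled value of the 4 genes was 18.2 ± 3.68 in sgMETTL1.3 libraries and 19.5 ± 0.561 in sgNS libraries (SD, n = 3 each; exact permutation p = 0.7). As TPM that sum was 21.6, 17.8 and 18.5 in sgMETTL1.3 libraries and 16.7, 16.3 and 16.2 in sgNS libraries, so the groups overlapped on the spike-in scale and were separate as TPM (exact permutation p = 0.1). Of the other SOCS genes, SOCS4 fell on the spike-in scale (-0.31) and not as TPM (0.03), while SOCS5 and SOCS6 had log2 fold changes of 0.04 and -0.23 that did not pass. SOCS5 was called higher as TPM (0.38).

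PIM1 (chr6:37170203-37175426, plus strand), a serine/threonine kinase gene induced by STAT3 and STAT5 whose product promotes survival, had spike-in-scaled values of 127.0, 95.1 and 108.4 in sgMETTL1.3 libraries and 92.3, 99.6 and 99.2 in sgNS libraries. The groups overlapped, and the log2 fold change of 0.17 did not pass (adjusted p = 0.219 by limma, SE 0.11). As TPM PIM1 was 123.9, 114.3 and 114.2 in sgMETTL1.3 libraries and 81.7, 81.2 and 82.2 in sgNS libraries. These groups were far apart, and PIM1 was called higher with a log2 fold change of 0.52 (adjusted p = 0.00048 by limma, SE 0.06). On the spike-in scale PIM1 was called higher without sgMETTL1.3 replicate 2 (0.27, adjusted p = 0.0372 by limma). It was not called without sgMETTL1.3 replicate 1, where PIM1 was highest (0.0657, adjusted p = 0.602 by limma). After the GC correction it was not called either (0.0712, adjusted p = 0.497 by limma). As TPM PIM1 was called higher in both of these settings (0.48 and 0.42). Its relative PIM2 fell on the spike-in scale, with 22.1, 18.3 and 21.1 in sgMETTL1.3 libraries against 25.1, 28.1 and 26.5 in sgNS libraries, a log2 fold change of -0.36 (adjusted p = 0.0165 by limma) and -0.02 as TPM. PIM3 had spike-in-scaled values of 51.2, 24.0 and 28.4 in sgMETTL1.3 libraries and 23.1, 23.0 and 23.5 in sgNS libraries; the groups were separate by a narrow margin and its log2 fold change of 0.48 did not pass (adjusted p = 0.164 by limma). As TPM PIM3 was called higher, with separate groups and a log2 fold change of 0.81 (adjusted p = 0.0126 by limma). Its highest value is that of sgMETTL1.3 replicate 1; without that library the PIM3 log2 fold change was 0.16 on the spike-in scale (adjusted p = 0.195 by limma) and 0.56 as TPM (adjusted p = 6.89e-06 by limma), a setting added for PIM3 after its values were seen.

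The rest of the pathway was examined in lists of receptors, ligands, other inhibitors and known targets. Of 136 such genes other than the 10, 82 were tested; 10 were called higher and 39 lower on the spike-in scale, and 26 higher and 23 lower as TPM. Of all tested genes, 6.40% were called higher and 49.3% lower on the spike-in scale, and 24.4% and 26.6% as TPM, so the share called lower on the spike-in scale is near that of all genes. Their median log2 fold change was -0.27, against -0.32 for all tested genes. Log2 fold changes in what follows are on the spike-in scale unless given as TPM, and each gene said to rise or fall passed limma's test with Benjamini-Hochberg adjustment on that scale.

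Of 37 receptor genes, 26 were tested, 4 rose and 12 fell (median -0.28), and as TPM 6 rose and 7 fell. The shares over all tested genes were 6.40% higher and 49.3% lower, and 24.4% and 26.6% as TPM. IL6R, which binds interleukin 6, rose (0.44; 0.78 as TPM), with spike-in-scaled values of 223, 180.7 and 211 in sgMETTL1.3 libraries and 145, 153.5 and 154 in sgNS libraries. IL2RG, the common gamma chain, fell (-0.89), with means of 331 ± 24.5 in sgMETTL1.3 libraries and 612 ± 24.7 in sgNS libraries (SD, n = 3 each). IL4R, the interleukin 4 receptor that signals through STAT6, fell (-0.89), and so did CRLF2, the receptor of thymic stromal lymphopoietin (-1.25), both also as TPM. IFNGR1, the ligand-binding chain of the interferon gamma receptor, fell (-0.53) and did not pass as TPM (-0.19). IL10RB, shared by interleukin 10 and type III interferon receptors, had a log2 fold change of -0.26 that did not pass. The interleukin 10 receptor gene IL10RA, named after its values were seen, rose (0.68, and 1.02 as TPM).

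Few ligand genes were detected: of 28 listed, 24 were below the filter and 11 of these were listed at 0 in every library. OSM, a gp130 cytokine that is itself a STAT5 target, rose (0.92; 1.13 as TPM), with spike-in-scaled values of 4.40, 2.60 and 3.23 in sgMETTL1.3 libraries and 1.52, 1.42 and 0.966 in sgNS libraries. IL12A, a subunit of interleukin 12, fell (-0.81), with 0.757 ± 0.101 in sgMETTL1.3 libraries and 2.10 ± 0.439 in sgNS libraries (spike-in-scaled, SD, n = 3 each). Its sgMETTL1.3 values were 0.87, 0.72 and 0.68, so IL12A passed the filter at 1 only through the sgNS libraries. CLCF1 and IL11, both gp130 ligands, had log2 fold changes of 0.09 and 0.17 that did not pass. As TPM CLCF1 was called higher (0.41) and IL11 did not pass (0.33).

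Of 15 other inhibitors, 14 were tested, 10 fell and 1 rose (median -0.34), against 4 and 2 as TPM. Of all tested genes, 49.3% were called lower and 6.40% higher (median -0.32), and 26.6% and 24.4% as TPM. PTPN11, which encodes the phosphatase SHP-2, had spike-in-scaled values of 47.3, 47.5 and 53.0 in sgMETTL1.3 libraries and 133, 148 and 139 in sgNS libraries, and fell (-1.49; -1.15 as TPM). PTPN6, which encodes the phosphatase SHP-1 of blood cells, fell (-0.97; -0.62 as TPM), as did DUSP3, a dual-specificity phosphatase (-1.01; -0.67 as TPM). PTPRC, which encodes CD45, fell (-0.36) and did not pass as TPM (-0.01), and PIAS1, a SUMO ligase, had -0.25 and did not pass. CBLB, a ubiquitin ligase gene named after its values were seen, was the gene that rose (0.59).

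Of 20 genes known as STAT3 or STAT5 targets, 18 were tested, 8 fell and 2 rose (median -0.10), while 8 rose and 5 fell as TPM. Over all tested genes 49.3% were called lower and 6.40% higher, and as TPM 24.4% higher and 26.6% lower. MYC, a growth regulator, fell (-1.57; -1.23 as TPM), with spike-in-scaled values of 115, 77.7 and 89.3 in sgMETTL1.3 libraries and 267, 284 and 283 in sgNS libraries. The survival gene MCL1 fell (-1.03) and the cyclin genes CCND2 (-1.02) and CCND3 (-0.61) fell, CCND3 on the spike-in scale only. VEGFA, an angiogenic factor, had -0.06 and did not pass, and was called higher as TPM (0.29). OSM and SGK1 were the genes that rose, SGK1 (0.50) being named after its values were seen. Targets of these factors have other regulators, so the list describes known links and not a measured activity.

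Of 12 genes known as STAT6 targets, 5 were tested. FCER2, the low-affinity IgE receptor (-0.69), FCGR2B, the inhibitory IgG receptor (-0.53), and the lectin CD209 (-0.66) fell, the first and last also as TPM. The spike-in-scaled values of CD209 were 0.59, 0.53 and 0.57 in sgMETTL1.3 libraries. CD209 thus passed the filter at 1 only through the sgNS libraries. PPARG, a nuclear receptor of macrophages, rose (0.33; 0.67 as TPM), and the chemokine CCL26 had -0.39 and did not pass.

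**Figure D4:**
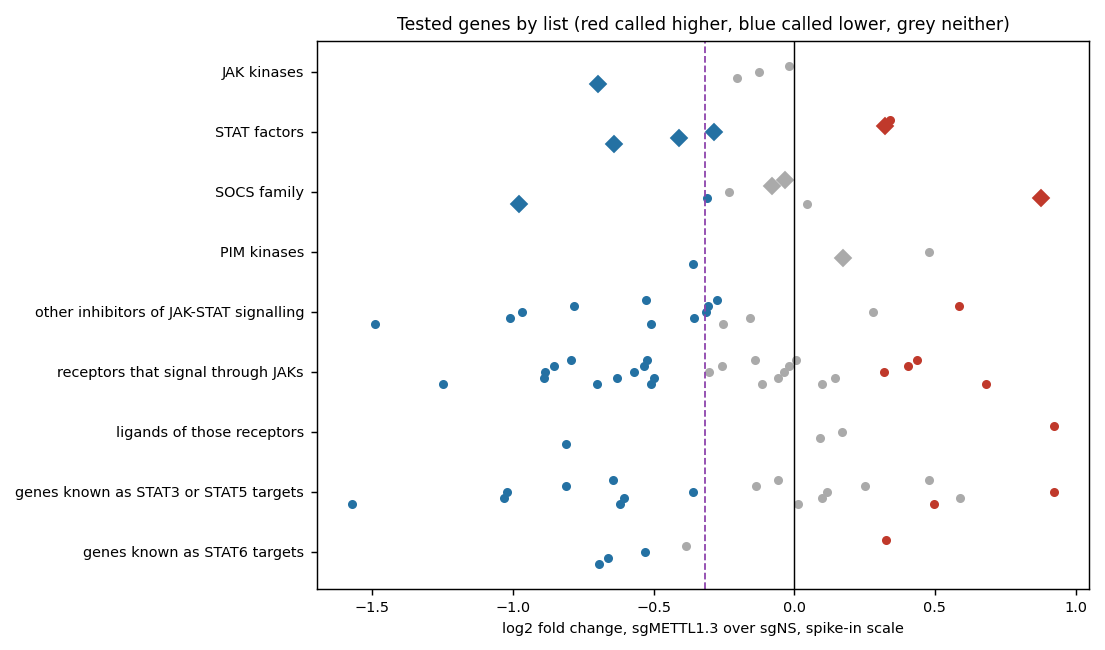
Log2 fold changes on the spike-in scale (x axis) of tested genes of each list shown (y axis; diamonds are the 10 genes, circles the others), red where called higher, blue where called lower and grey where neither. The dashed line is the median of all tested genes, -0.32; PTPN11 and MYC lie farthest left and OSM and SOCS3 farthest right.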

How the data were processed

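Per the submitters' processing notes, cutadapt, STAR and RSEM were used with GRCh38/hg38; their versions, the annotation and any use of strand were not given there. Libraries came from 300 ng of total RNA, per the labels' protocols. The deposited signal values are TPM times 1 factor per library that makes the 92 ERCC rows sum to 38252; this was read from the values. Depth is unknown, so no counting interval is given.

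A gene was kept if 3 or more of the 6 libraries reached a value of 1. After adding 1 and taking log2, limma 3.58.1 (R 4.3.3; trend, robust, no block) was run with Benjamini-Hochberg adjustment over all 12449 genes at 0.05; ERCC rows were left out. Shares were compared by exact permutation. The fit was tested on simulated data. Transcript GC and coordinates came from GENCODE 29, windows before starts from RefSeq. GC correction, added after the data were seen, subtracted a lowess (span 0.3) of each library's deviation on GC.

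Named genes were the 10, METTL1, and in each list the up to 4 with the highest mean and up to 3 called with the largest change, besides those marked as named later. Among listed genes, SOCS7 had no matching row used here, and some listed genes and 1 list are counted in the pathway totals but not reported here. Members and lists were chosen with earlier results of these data known.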

Additional observations from a re-analysis of the deposited data

How the results depend on the processing

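METTL1 stayed lower and called in all 18 alternatives (-1.52 to -1.08), as did SOCS2, STAT5A and, upward, SOCS3 wherever they were tested. SOCS1 missed the filter without sgNS replicate 1, sgNS replicate 2 or sgMETTL1.3 replicate 1, and SOCS1 and SOCS3 as TPM without sgMETTL1.3 replicate 1. As TPM, with median-ratio rescaling and with quantile normalization, which put the median of all genes near 0, the genes called lower numbered 2, 2 and 2 of the 10, 23, 24 and 23 of the other pathway genes, and 3295, 3344 and 3231 of all genes. Those called higher were 26, 27 and 28 of the other pathway genes and 3021, 3142 and 2978 of all genes. Log2 fold changes turned to 0.14, 0.16 and 0.0023 for SOCS1, 0.24, 0.26 and 0.22 for CISH, and 0.0545, 0.0690 and 0.0985 for STAT5B in these 3 settings, and to 0.0219 for STAT6 with quantiles. As TPM without sgMETTL1.3 replicate 1, CISH was 0.15 and STAT5B 0.0447, and 36 pathway genes and 4231 of all genes were called higher; with GC correction as TPM, chosen after seeing the data, CISH was 0.10 and STAT5B 0.0049, with 33 and 3496. With a mean of at least 5, which leaves out SOCS1, SOCS2 and SOCS3, 1 of the 10 and 510 of all genes were called higher. Leaving out 1 library gave 4 to 5 of the 10 lower and 1 to 3 higher (1 without sgNS replicate 1 or sgNS replicate 3), 6 to 14 other pathway genes higher (6 without sgNS replicate 1), and log2 fold changes of -0.12 to 0.12 for SOCS1 and -0.23 to 0.0529 for CISH. In the same fits 4880 to 7538 of all genes were called lower and 534 to 1037 higher. The cause of these differences was not tested beyond what each setting changes by construction.

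Same-numbered libraries did not deviate together (r = -0.014, 0.005 and -0.039 across genes for replicates 1, 2 and 3), so the numbers were not taken to pair the samples. With the replicate number as a block, 4 of the 10 were called lower and 2 higher, and 5861 of all genes lower and 814 higher; STAT5B was -0.28 (limma adjusted p = 0.094). The STAT5B and SOCS3 share differences were 5.72 to 7.17 and 9.02 to 10.4 percentage points with 1 library left out. With libraries paired by number they were 6.29 and 9.58, each with an exact permutation p of 0.25, the smallest that 3 pairs can give.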
